A study of Homo sapiens with 6 samples.

Results

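DNA replication and S-phase genes were examined in C4-2B prostate cancer cells and in their enzalutamide resistant counterparts. The 50 genes were taken by name, with no threshold on a measured value but with earlier results of these data known, and all 50 were found among the 58024 genes of the expression table. C4-2B is an androgen-independent human prostate cancer cell line derived from LNCaP cells, and enzalutamide is an antiandrogen drug used against prostate cancer. RNA-Seq of 3 parental and 3 resistant libraries was compared, each numbered 0, 1 and 2. The resistant cells had been passaged in rising doses of enzalutamide, from 1 to 20 µM over 6 months, and were then kept in 5 µM. The parental cells were passaged beside them in the vehicle, DMSO, given as 1% in the labels, while the methods state a maximum below that. Both groups were grown in RPMI medium with 10% FBS. In the protocol, cells were exposed to 10 µM enzalutamide before their RNA was taken, and whether the parental cells were also exposed is not clear from it. The resistant cells are a pool of survivors and not a clone. Nothing states that the libraries of a group came from separate cultures, so the p values measure the spread between these libraries, which may be technical.

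A cell copies its genome once in each S phase. The origin recognition complex (ORC), CDC6 and CDT1 load the ring-shaped MCM2-7 helicase onto DNA in G1 phase, which is called licensing, and geminin then blocks CDT1. Kinases, with cyclin E and CDK2 among them, lead to the joining of CDC45 and the GINS complex to the helicase, which opens the double strand. Polymerase alpha and primase start each strand, polymerases epsilon and delta extend it, the clamp PCNA holds them on DNA, and FEN1 and DNA ligase I seal the lagging strand. Many of these genes are targets of the E2F transcription factors, which are held back by the retinoblastoma protein until cyclin dependent kinases phosphorylate it. The set is widely read in tumours as a sign of proliferation.

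The promoters of 5 of the genes are shown because the E2F family contains the member with the largest fold change. Promoter letters were not used to choose the genes. Many of the genes are known E2F targets, however, so a raised share of E2F recognition letters among them was to be anticipated. The letters searched, on both strands, were TTTCCCGC, TTTCGCGC, TTTGCCGC and TTTGGCGC, and matches on opposite strands can overlap each other. Each line gives the 250 bases before the annotated start, 5′ to 3′ on the gene's own strand, from RefSeq on GRCh38.p14, and capitals mark the matched letters on either strand. E2F2 at chr1:23531234-23531483 and LIG1 at chr19:48170345-48170594 are on the minus strand and rose most among these genes. MCM6 at chr2:135876444-135876693 and MCM7 at chr7:100101398-100101647 are on the minus strand too and rose. RFC3 at chr13:33817899-33818148 is on the plus strand and is shown because it fell although its promoter holds such letters.
E2F2: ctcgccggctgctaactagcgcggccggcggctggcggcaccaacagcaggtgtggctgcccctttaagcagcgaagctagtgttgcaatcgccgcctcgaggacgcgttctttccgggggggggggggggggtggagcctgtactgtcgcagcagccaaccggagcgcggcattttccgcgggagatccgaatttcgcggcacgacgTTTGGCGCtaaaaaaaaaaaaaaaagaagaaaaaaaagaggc
LIG1: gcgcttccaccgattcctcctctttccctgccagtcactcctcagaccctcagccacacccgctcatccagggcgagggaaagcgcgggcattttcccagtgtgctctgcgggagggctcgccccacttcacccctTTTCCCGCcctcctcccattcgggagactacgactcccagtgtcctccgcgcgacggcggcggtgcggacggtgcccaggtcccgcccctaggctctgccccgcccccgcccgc
MCM6: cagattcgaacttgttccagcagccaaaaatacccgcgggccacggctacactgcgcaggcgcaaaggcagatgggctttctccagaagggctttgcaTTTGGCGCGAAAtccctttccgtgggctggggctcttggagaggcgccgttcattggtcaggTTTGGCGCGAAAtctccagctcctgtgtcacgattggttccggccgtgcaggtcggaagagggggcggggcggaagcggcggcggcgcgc
MCM7: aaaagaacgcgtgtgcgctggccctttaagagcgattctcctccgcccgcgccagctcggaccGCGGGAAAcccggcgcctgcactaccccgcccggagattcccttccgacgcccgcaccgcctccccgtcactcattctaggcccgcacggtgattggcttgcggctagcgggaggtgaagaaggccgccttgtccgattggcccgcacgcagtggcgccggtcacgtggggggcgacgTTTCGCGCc
RFC3: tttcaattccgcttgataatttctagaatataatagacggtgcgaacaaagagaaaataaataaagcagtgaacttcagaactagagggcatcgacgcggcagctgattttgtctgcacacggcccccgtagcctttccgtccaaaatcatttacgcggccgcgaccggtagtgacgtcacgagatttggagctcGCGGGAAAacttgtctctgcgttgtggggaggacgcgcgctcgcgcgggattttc

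E2F2 has 1 match, starting 42 bases before the start site, and LIG1 has 1 match at 114 bases before it. MCM6 has 4 matches that overlap in pairs and so form a pair of separate stretches, while MCM7 has 2 matches. RFC3 has 1 match, 55 bases before its start. Promoters of 300 bases, from 250 before to 50 after the start, were found for 42 of the 50 genes. The letters were present in 20 of these 42 promoters (47.6%), against 3.33% of all 27305 promoters of the same length and 5.81% of the 8089 promoters of genes averaging 5 FPKM or more. Among the 22 genes that rose and have a promoter in the table, 14 hold the letters. They are present in 5 of the 16 promoters of genes that did not pass the threshold, and in 1 of the 4 promoters of genes that fell. The genes left out for want of a promoter all passed the threshold. They are MCM4, MCM5, POLD3, RPA2, RPA3, CCNE2 and CDK2, which rose, and GINS4, which fell. The differences between these shares were not tested. The median log2 fold change was 0.68 over the 20 genes with the letters and 0.21 over the 22 genes without them. Among other genes averaging 5 FPKM or more, 31.6% of the 450 with the letters and 25.5% of the 7597 without them were higher in the resistant cells, with median log2 fold changes of 0.02 and -0.08. These matches describe the letters of the window and not binding of a factor. Only exact matches were counted, so the genes without the letters can hold close variants. CDC45, which rose, is counted as without them but holds tttggcgg, which differs from TTTGGCGC in its last letter.

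The values are FPKM, fragments scaled to transcript length and to the mapped reads of the library, so levels can be set side by side between genes on a per-length scale. The table holds no read counts. Depth estimated from the step between low values was 13300000 to 20100000 reads per library, and the value with the fewest estimated reads among the 50 genes, that of CCNE1 in resistant library 1, then rests on about 190 reads. The libraries also differed in abundant small non-coding RNAs that take part in the same scaling: RMRP took 18.4 to 21.5% of the summed FPKM in the parental and 11.4 to 12.6% in the resistant libraries, and RPPH1 took 10.7 to 11.6% in the resistant libraries and was listed at 0 in every parental one. With each library rescaled after leaving out such abundant genes, 32 of the 50 genes were higher and 5 lower. The prostate and luminal genes HOXB13, KRT8 and KRT18 were each above 60 FPKM in mean level in both groups, while KLK3, the gene of prostate specific antigen, had a mean of 2560 FPKM in parental and 44 FPKM in resistant cells. Markers of other cell types were low. The 5 leukocyte markers summed to at most 1.18 FPKM and the 4 endothelial markers to at most 1.14 FPKM in any library. The 5 fibroblast markers summed to between 7.87 and 10.1 FPKM in parental and between 7.88 and 12.6 FPKM in resistant libraries. They did not move in 1 direction. DCN was listed at 0 in all parental libraries and had a mean of 3.92 FPKM in resistant ones. LUM rose from 0.0604 to 0.969 FPKM in mean level, PDGFRB fell from 2.1 to 0.164 FPKM, and COL1A1 did not pass the threshold.

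Resistant cells carried more mRNA of the replication machinery than parental cells, although the rise was uneven and several genes fell. Of the 50 genes, 29 rose, 5 fell and 16 did not pass the threshold of an adjusted p of 0.05. The rise was led by the transcription factor gene E2F2, 4.79-fold higher in mean FPKM, the DNA ligase gene LIG1, 3.71-fold higher, and the origin recognition gene ORC3, 3.0-fold higher. The 5 that fell were ORC4, GINS4, RFC3, TK1 and CCNE1, each by less than a factor of 2 in mean FPKM. Background shares over all 24468 genes tested were 22.1% higher and 22.3% lower, and over the 11308 genes averaging 5 FPKM or more they were 25.3% and 30.6%. Against these, 58.0% of the replication genes were higher and 10.0% were lower. Their median log2 fold change, resistant over parental on log2(FPKM + 0.1), was 0.47, against -0.05 over all genes tested and -0.08 over genes averaging 5 FPKM or more. All 50 genes passed the filter on low values. Among the 16 that did not pass the threshold, MCM3, ORC1, ORC6, RFC4, POLD2 and FEN1 did so under at least 1 other scaling of the libraries.

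For most of the 50 genes the 2 groups of libraries did not overlap. All 3 resistant libraries were above all 3 parental ones for 31 genes, and all 3 were below for 5 genes, while the groups overlapped for 14. Over all genes tested the shares were 26.6% above and 28.1% below, so separation in either direction was common in the whole table. Summed over the 50 genes, the level was 3110, 2740 and 3090 FPKM in parental cells and 3950, 4420 and 4170 FPKM in resistant cells. The 2 ranges do not overlap, and the sum made up 0.342 to 0.359% of all FPKM in parental and 0.490 to 0.518% in resistant libraries. Parental library 1 was the lowest parental library for 36 of the 50 genes. Its median deviation from the parental mean was -0.10 on the log2 scale, against 0.05 and 0.03 in the other parental libraries and 0.45, 0.54 and 0.47 in resistant libraries 0, 1 and 2.

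**Figure D1:**
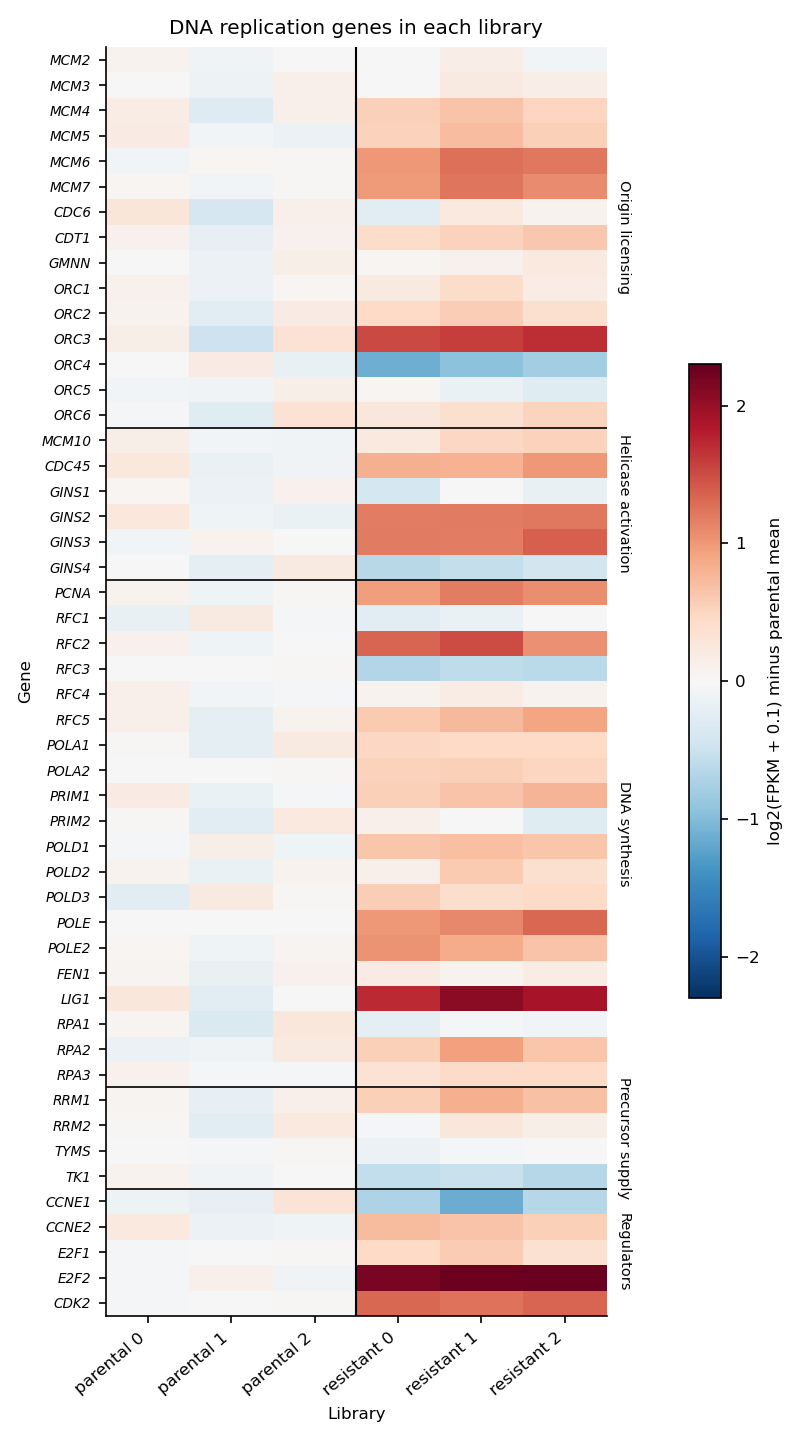
Level of each of the 50 genes in each of the 6 libraries, drawn as the log2 difference from the mean of the parental libraries, with genes grouped by role. The 3 resistant columns are above the parental mean for most genes, with E2F2, LIG1 and ORC3 the highest and ORC4, CCNE1 and RFC3 the lowest.

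**Figure D2:**
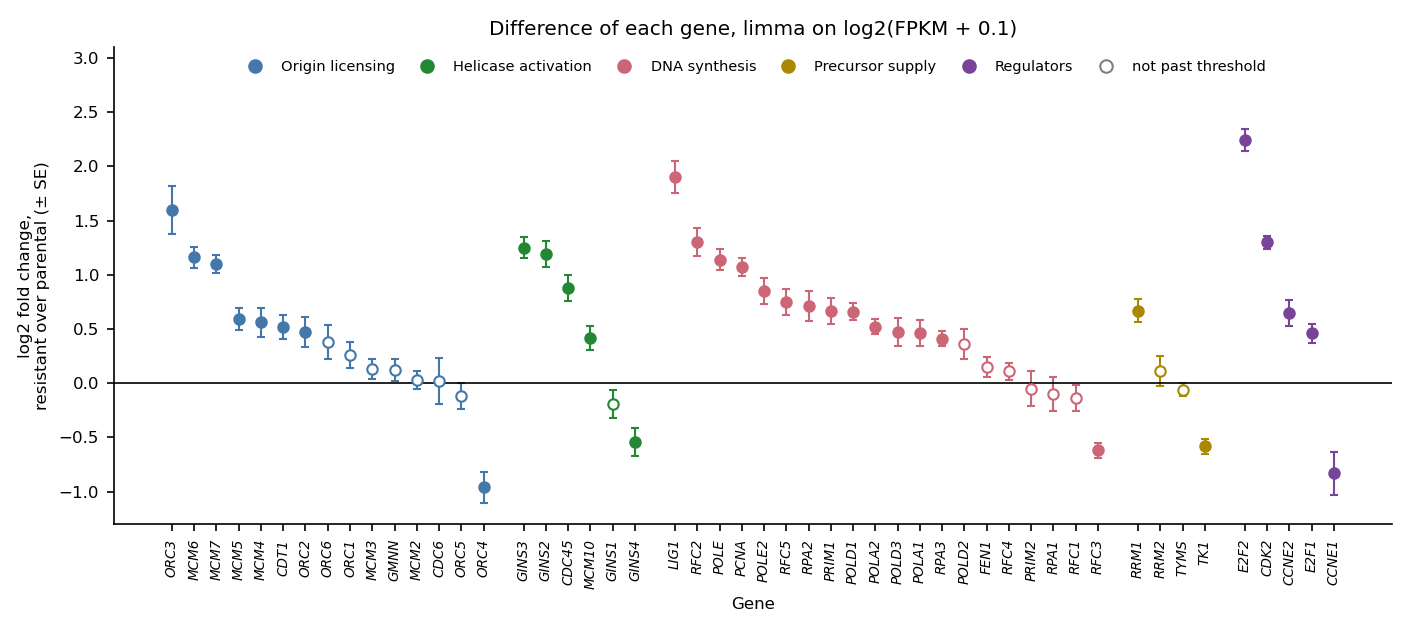
Log2 fold change of each gene, resistant over parental, with bars for its standard error from the limma fit to 3 against 3 libraries. Filled points passed an adjusted p of 0.05, and 29 of them are above 0 and 5 below it.

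All 5 regulators of S-phase entry passed the threshold, with 4 higher (80.0%) and 1 lower (20.0%), beside 22.1% and 22.3% over all genes tested. E2F2 among them had the largest log2 fold change of the 50 genes. E2F2, an activating member of the E2F family, is on chromosome 1 (GRCh38, 23506438 to 23531233, minus strand). Its level was 5.07, 5.67 and 4.96 FPKM in parental cells and 24.1, 25.4 and 25.6 FPKM in resistant cells. The groups are far apart and the libraries within each lie close together. The log2 fold change was 2.24 ± 0.10 (SE) with an adjusted p of 2.61e-05, and it stayed between 2.2 and 2.3 with any library left out. E2F1, the other activating member examined, was more abundant in parental cells and rose less, from 31.7 ± 0.679 to 43.8 ± 3.75 FPKM (mean ± SD, n = 3), with a log2 fold change of 0.46 and an adjusted p of 0.00599. The ratio of E2F1 to E2F2 therefore dropped from 6.13, 5.57 and 6.55 to 1.80, 1.88 and 1.57, with no overlap between the groups.

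CDK2, the kinase that cyclin E activates, is on chromosome 12 (55966781 to 55972789, plus strand). It was at 64.9, 65.5 and 67.5 FPKM in parental and at 164, 157 and 167 FPKM in resistant libraries. Every resistant library was above every parental one, and the log2 fold change was 1.30 ± 0.06 (SE) with an adjusted p of 2.49e-05. The genes of its cyclin partners moved in opposite directions. CCNE1 (chromosome 19, 29811991 to 29824312) was at 10.1, 9.54 and 13.5 FPKM in parental and at 6.67, 4.88 and 6.92 FPKM in resistant libraries, with a log2 fold change of -0.83 ± 0.20 and an adjusted p of 0.0164. CCNE2, which encodes the other E-type cyclin, was at 23.3, 18.2 and 18.7 FPKM in parental and at 33.0, 31.5 and 29.3 FPKM in resistant libraries, with a log2 fold change of 0.65 ± 0.12 and an adjusted p of 0.00608. CCNE2 was the more abundant of the cyclin E genes in every library. The ratio of CCNE1 to CCNE2 was 0.433, 0.525 and 0.722 in parental and 0.202, 0.155 and 0.236 in resistant libraries, which do not overlap.

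Of 15 origin licensing genes, 7 were higher (46.7%), 1 was lower (6.67%) and 7 did not pass the threshold. Their median log2 fold change was 0.38, and 22.1% of all genes tested were higher and 22.3% lower. Within the MCM2-7 helicase, MCM6 and MCM7 rose most. MCM6 (chromosome 2, 135839626 to 135876443) was at 22.5, 24.0 and 23.7 FPKM in parental and at 46.7, 56.5 and 54.3 FPKM in resistant libraries, a log2 fold change of 1.16 ± 0.10 with an adjusted p of 0.000208. MCM7 (chromosome 7, 100092233 to 100101940) was at 157, 146 and 155 FPKM and then at 301, 357 and 325 FPKM, a log2 fold change of 1.10 ± 0.08 with an adjusted p of 0.000129. For both genes the resistant libraries were well above the parental ones. MCM4 and MCM5 rose by 0.56 and 0.59 on the log2 scale, with adjusted p values of 0.0151 and 0.00445, and MCM4 missed the threshold without resistant library 1, at an adjusted p of 0.0571. MCM2 and MCM3 gave log2 fold changes of 0.03 and 0.13, and their libraries overlapped, with adjusted p values of 0.805 and 0.310.

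The helicase subunits act as a ring with each present once, but their mRNA levels were far from equal. MCM4 was the highest and MCM6 the lowest subunit in all 6 libraries. The highest level divided by the lowest was 12.9, 8.73 and 11.8 in parental cells and 8.05, 7.18 and 6.70 in resistant cells, so the spread was narrower in resistant cells in every library. The summed level of the helicase genes was 817, 686 and 777 FPKM in parental and 1100, 1240 and 1120 FPKM in resistant libraries.

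The origin recognition complex held both the largest rise and the largest fall among the licensing genes. ORC3 (chromosome 6, 87590067 to 87667453) was at 5.82, 3.79 and 6.73 FPKM in parental and at 15.4, 16.1 and 17.4 FPKM in resistant libraries. Its log2 fold change was 1.6 ± 0.22 with an adjusted p of 0.00161, and parental library 1 was the lowest. ORC4 (chromosome 2, 147930396 to 148021604) was at 24.5, 27.9 and 21.7 FPKM in parental and at 11.2, 12.7 and 14.1 FPKM in resistant libraries, with a log2 fold change of -0.96 ± 0.14 and an adjusted p of 0.00191. ORC3 and ORC4 thus exchanged order, since ORC3 was the lower of the pair in every parental library and the higher in every resistant one. ORC2 rose by 0.47 with an adjusted p of 0.0329, while ORC1, ORC5 and ORC6 gave 0.26, -0.12 and 0.38, with adjusted p values of 0.130, 0.422 and 0.112. For ORC1 the groups did not overlap, although it missed the threshold. ORC2 missed it when parental library 0 or any resistant library was left out, with an adjusted p of up to 0.102.

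Among the loading factors, CDT1 rose and CDC6 did not pass. CDT1, which brings the helicase to the origin, was at 58.8, 48.3 and 59.1 FPKM in parental and at 73.5, 79.8 and 85.0 FPKM in resistant libraries, a log2 fold change of 0.52 ± 0.11 with an adjusted p of 0.00842. CDC6, its partner in loading, varied more within groups, with 80.6, 50.6 and 72.0 FPKM in parental and 55.4, 78.0 and 70.4 FPKM in resistant libraries, and its log2 fold change was 0.02 ± 0.21. GMNN, which encodes geminin, the inhibitor of CDT1, had a log2 fold change of 0.12 with an adjusted p of 0.357. The ratio of CDT1 to GMNN was 1.25, 1.12 and 1.14 in parental and 1.51, 1.58 and 1.55 in resistant libraries, without overlap.

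**Figure D3:**
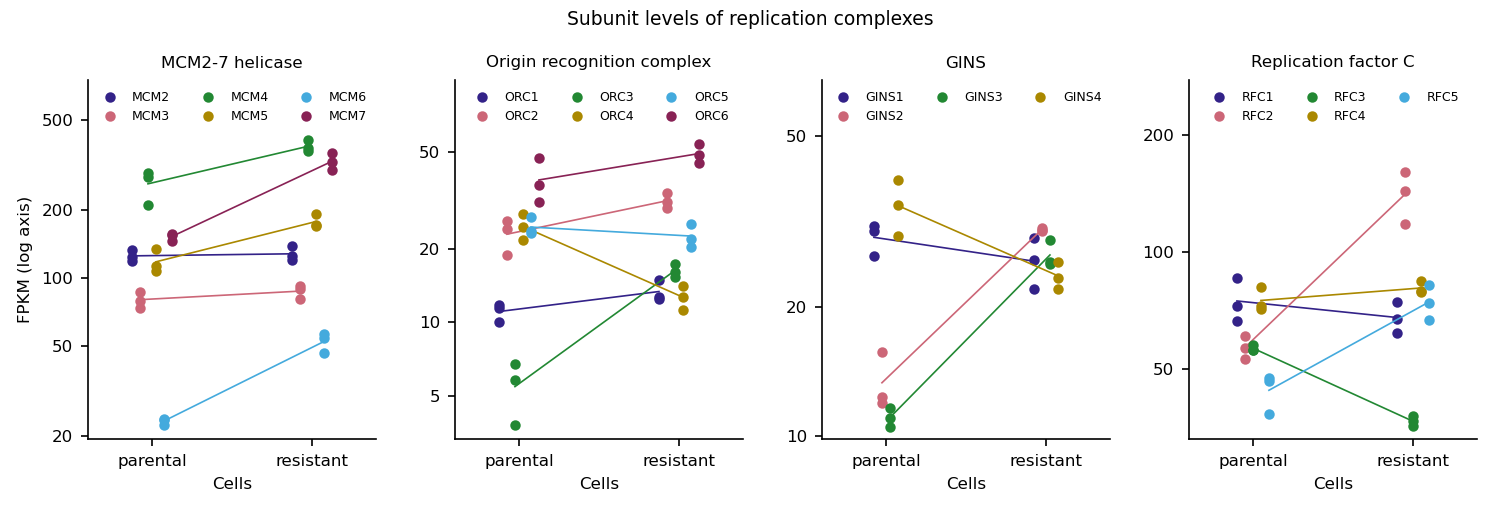
FPKM on a log axis of each subunit of MCM2-7, the origin recognition complex, GINS and replication factor C in parental and resistant cells. Points are the 3 libraries of a group and lines join the group means. Lines for ORC3 and ORC4, for GINS2 or GINS3 and GINS4, and for RFC2 and RFC3 cross or diverge.

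Of the 6 genes that turn the loaded helicase into an active one, 4 rose (66.7%) and 1 fell (16.7%). The shares over all genes tested were 22.1% higher and 22.3% lower. GINS2 was at 15.7, 12.3 and 11.9 FPKM in parental and at 30.1, 30.3 and 30.6 FPKM in resistant libraries, a log2 fold change of 1.19 ± 0.12 with an adjusted p of 0.000529. GINS3 was at 10.5, 11.6 and 11.0 FPKM and then at 25.5, 25.2 and 28.6 FPKM, a log2 fold change of 1.25 ± 0.10 with an adjusted p of 0.000172. GINS4 moved the other way, from 34.5, 29.3 and 39.6 FPKM to 22.0, 23.4 and 25.5 FPKM, with a log2 fold change of -0.54 ± 0.13 and an adjusted p of 0.0168. None of these 3 genes had overlapping groups. GINS1 gave -0.19 with an adjusted p of 0.275. With these opposite moves the highest GINS subunit was 3.30, 2.52 and 3.59 times the lowest in parental libraries and 1.37, 1.30 and 1.2 times in resistant ones. The 4 GINS genes were therefore at more equal mRNA levels in the resistant cells. CDC45, the third component of the active helicase, was at 44.3 ± 6.61 FPKM in parental and 81.0 ± 6.38 FPKM in resistant cells (mean ± SD, n = 3), and rose by 0.88 on the log2 scale with an adjusted p of 0.00176. MCM10, which helps to activate the helicase, rose by 0.42 with an adjusted p of 0.0254. GINS4 missed the threshold without parental library 0, resistant 0 or resistant 1, with an adjusted p of up to 0.0574, and MCM10 missed it without parental 1, parental 2, resistant 1 or resistant 2, with an adjusted p of up to 0.0827.

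Genes of DNA synthesis formed the largest group, with 13 of 20 higher (65.0%), 1 lower (5.0%) and 6 not past the threshold. Their median log2 fold change was 0.50, and 22.1% of all genes tested were higher and 22.3% lower. LIG1, which encodes the ligase that joins Okazaki fragments, is on chromosome 19 (48115445 to 48170603, minus strand). It was at 31.8, 22.4 and 26.7 FPKM in parental and at 87.8, 113 and 99.5 FPKM in resistant libraries. The lowest resistant library was far above the highest parental one, and the log2 fold change was 1.90 ± 0.15 with an adjusted p of 0.000194, between 1.77 and 2.02 with any library left out. FEN1, the flap nuclease that acts before the ligase, gave 0.15 with an adjusted p of 0.226. PCNA, the sliding clamp, was at 112, 98.9 and 109 FPKM in parental and at 208, 240 and 224 FPKM in resistant libraries, a log2 fold change of 1.07 ± 0.08 with an adjusted p of 0.000162.

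Replication factor C, the complex that loads PCNA, changed in composition at the mRNA level. RFC2 (chromosome 7, 74231499 to 74254458) was at 60.9, 53.2 and 56.5 FPKM in parental and at 144, 161 and 118 FPKM in resistant libraries, a log2 fold change of 1.30 ± 0.13 with an adjusted p of 0.000391. RFC3 (chromosome 13, 33818069 to 33966558) was at 56.0, 56.0 and 57.8 FPKM and then at 35.6, 37.8 and 36.7 FPKM, a log2 fold change of -0.62 ± 0.07 with an adjusted p of 0.000563. RFC2 and RFC3 were at similar levels in parental cells and far apart in resistant ones. RFC5 rose by 0.75 with an adjusted p of 0.00308, whereas RFC1 and RFC4 gave -0.14 and 0.11, with adjusted p values of 0.388 and 0.299. The highest subunit was 1.71, 2.24 and 1.55 times the lowest in parental libraries and 4.06, 4.26 and 3.22 times in resistant ones, the opposite of what was seen for MCM2-7 and GINS.

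Polymerase genes were higher or did not pass, and none fell. POLE, the catalytic subunit of polymerase epsilon on the leading strand, was at 38.3, 38.5 and 37.8 FPKM in parental and at 76.4, 82.5 and 95.3 FPKM in resistant libraries, a log2 fold change of 1.14 ± 0.10 with an adjusted p of 0.000212. Its partner POLE2 rose by 0.85 with an adjusted p of 0.00175. The ratio of POLE2 to POLE overlapped between the groups, at 0.446, 0.405 and 0.458 in parental and 0.445, 0.365 and 0.276 in resistant libraries. In polymerase delta, which works on the lagging strand, the catalytic gene POLD1 rose by 0.66 and POLD3 by 0.47, with adjusted p values of 0.000973 and 0.0291, while POLD2 gave 0.36 with an adjusted p of 0.0742 and groups that did not overlap. In polymerase alpha and primase, POLA1, POLA2 and PRIM1 rose by 0.46, 0.52 and 0.67, with adjusted p values of 0.0233, 0.00115 and 0.00437. PRIM2, the large primase subunit, gave -0.05 with an adjusted p of 0.824 and overlapping libraries. Of the single-strand binding protein RPA, RPA2 and RPA3 rose by 0.71 and 0.41, with adjusted p values of 0.00747 and 0.00470, and RPA1, the large subunit, gave -0.10 with an adjusted p of 0.648. POLA1 and POLD3 missed the threshold without parental library 0 or any resistant library, and POLD3 also without parental 2, with adjusted p values of up to 0.066 and 0.0901.

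Of the 4 genes of nucleotide supply examined, 1 rose, 1 fell and 2 did not pass. These shares, 25% in each direction, are near the 22.1% higher and 22.3% lower over all genes tested. RRM1, the large subunit of ribonucleotide reductase, was at 103, 86.5 and 107 FPKM in parental and at 144, 173 and 157 FPKM in resistant libraries, a log2 fold change of 0.67 ± 0.11 with an adjusted p of 0.00339. RRM2, the small subunit, which is made mainly in S phase, was at 96.1, 79.7 and 111 FPKM and at 91.3, 113 and 104 FPKM, with overlapping groups and a log2 fold change of 0.11 ± 0.14. The ratio of RRM2 to RRM1 was 0.931, 0.922 and 1.04 in parental and 0.635, 0.653 and 0.660 in resistant libraries. TK1, the thymidine salvage kinase, was at 157, 141 and 150 FPKM in parental and at 101, 104 and 94.2 FPKM in resistant libraries, a log2 fold change of -0.58 ± 0.07 with an adjusted p of 0.00109. TYMS, which makes thymidylate de novo, was at 96.2, 93.1 and 97.5 FPKM and at 87.4, 93.0 and 94.6 FPKM, and its log2 fold change was -0.06 with an adjusted p of 0.467. All resistant libraries were below all parental ones for TK1, while the groups overlapped for TYMS.

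**Figure D4:**
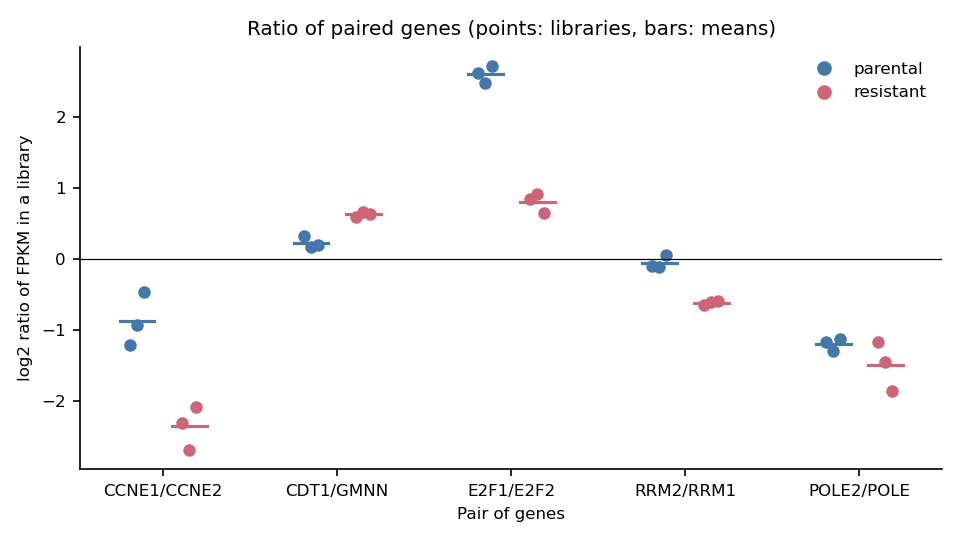
Ratio of FPKM between paired genes in each of the 6 libraries, on a log2 scale, with points for libraries and bars for group means. Parental and resistant libraries do not overlap for CCNE1 to CCNE2, CDT1 to GMNN, E2F1 to E2F2 and RRM2 to RRM1, and they overlap for POLE2 to POLE.

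Other genes of the same pathways were counted from lists made up by function. Of 30 further replisome and fork genes, 13 rose (43.3%) and 5 fell (16.7%), with a median log2 fold change of 0.21. Over all genes tested 22.1% were higher and 22.3% lower. MCM8, a helicase relative used in repair, rose from 11.1 to 22.7 FPKM in mean level, whereas the accessory polymerase subunits POLD4 and POLE4 fell from 43.3 to 13.9 FPKM and from 67.1 to 37.2 FPKM. POLD4 and POLE4 thus fell while no polymerase gene among the 50 did. Of 20 further genes of nucleotide metabolism, 4 rose and 4 fell, and 5 in all passed without parental library 2. The shares of 20.0% in each direction are close to those over all genes tested, 22.1% higher and 22.3% lower. DUT, which removes dUTP, rose from 90.3 to 148 FPKM, and ATIC and DHODH, of purine and pyrimidine synthesis, fell from 245 to 107 FPKM and from 29.7 to 15 FPKM.

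Of 18 further regulators of the G1 to S transition that were tested, 6 rose (33.3%) and 4 fell (22.2%). Over all genes tested 22.1% were higher and 22.3% lower, so the share that fell was near that of all genes. CKS1B, a partner of cyclin dependent kinases, rose from 6.97 to 26.3 FPKM, by 1.90 on the log2 scale, with an adjusted p of 8e-05. CHEK1, the checkpoint kinase, rose from 37.9 to 68.2 FPKM, and SLBP, which binds histone mRNA in S phase, rose from 48.7 to 87.8 FPKM. The 4 that fell, named after their values were seen, were E2F3, E2F5, TFDP2 and ATR, with log2 fold changes of -0.66, -0.76, -0.85 and -0.95. E2F3 is the remaining activating E2F, so the 3 activators did not move in 1 direction. Of 7 genes of CDK inhibitors, 4 rose (57.1%) and 1 fell (14.3%), against 22.1% higher and 22.3% lower over all genes tested. In all, 3 of these 7 passed without resistant library 2. The one that fell was CDKN1A, which encodes p21, an inhibitor of CDK2 and a binding partner of PCNA, at 90.4, 75.1 and 83.3 FPKM in parental and 28.1, 29.6 and 31.0 FPKM in resistant libraries, with a log2 fold change of -1.48 and an adjusted p of 6.9e-05. CDKN2D and CDKN1C rose from 7.91 to 17.2 FPKM and from 3.32 to 6.36 FPKM.

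Genes of chromatin assembly and of mitosis were counted beside the replication genes. Of 15 genes that assemble or copy chromatin, 6 rose and 2 fell. The share higher was above the 22.1% over all genes tested, and the share lower was below the 22.3%. Among these genes, HELLS and SUPT16H rose from 47.3 to 116 FPKM and from 39.4 to 73.2 FPKM. HAT1 fell from 54.1 to 26.5 FPKM. Of 21 mitosis genes, 4 rose (19%) and 6 fell (28.6%), with a median log2 fold change of 0.01. Over all genes tested 22.3% were lower, and 30.6% over genes averaging 5 FPKM or more, so the share lower lay between them. The 4 that rose were MKI67, AURKB, KIF11 and NUF2, named after their values were seen. Their log2 fold changes were 0.32, 0.36, 0.78 and 0.47. In all, 6 mitosis genes passed without parental library 0, resistant 0 or resistant 1. CDK1, the mitotic kinase, was at 318, 304 and 312 FPKM in parental and at 112, 107 and 106 FPKM in resistant libraries, a log2 fold change of -1.52 with an adjusted p of 1.32e-05. Thus CDK1 fell while CDK2 rose, and CDK1 was the more abundant kinase of the pair in every parental library but the less abundant in every resistant one. AURKA, a spindle kinase, and FOXM1, a transcription factor of G2 phase genes, fell from 48.9 to 24.7 FPKM and from 88.1 to 52.1 FPKM. The share higher was 58.0% for the replication genes, 43.3% for further replisome genes and 19% for mitosis genes, beside 22.1% over all genes tested. The share for the chromatin genes lay between those of the further replisome genes and the mitosis genes. The difference between the lists was not tested. In bulk RNA, a smaller share of cells in a phase cannot be told apart from less mRNA per cell.

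**Figure D5:**
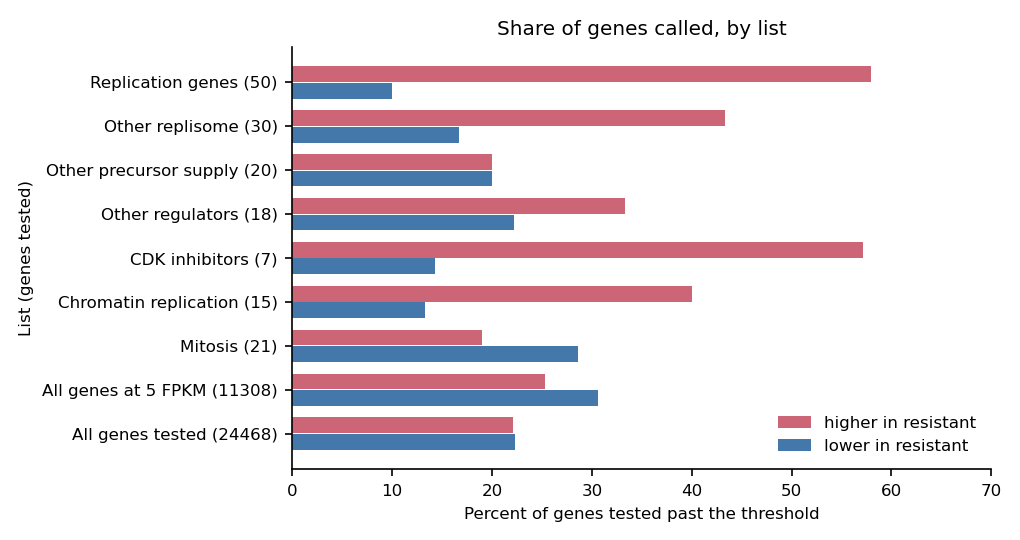
Share of genes past an adjusted p of 0.05 that were higher or lower in resistant cells, in percent, for the replication genes, for the other lists by function and for all genes tested. The replication genes have 58.0% higher and 10.0% lower, and the mitosis genes have 19% and 28.6%.

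The genes lie on 19 chromosomes. On chromosome 12 all 4 rose, where the median log2 fold change of the genes of the chromosome was 0.34, while on chromosome 16, with a median of -0.32, 3 of 4 rose. Of the 34 genes that rose or fell, 16 had the same sign as the median of the genes within 2 Mb on each side. ORC3 and RFC3 are beside genes that moved the same way, with medians of 1.88 over 16 neighbours and -1.61 over 12 neighbours, and CDK2 had a median of 0.63 over 114 neighbours. MCM6, GINS2 and MCM5 rose beside medians of -0.77, -0.81 and -0.95. The part of neighbouring genes in these results was not tested. In 17 genes another gene with at least 1 FPKM overlaps, in 14 of them on the opposite strand, and whether the counting used strand is not stated. Among these are CDK2 with PMEL, MCM7 with AP4M1, GINS2 with GSE1, ORC4 with MBD5 and TYMS with ENOSF1, and reads of such partners may not be separable. E2F2, LIG1, MCM6, ORC3, PCNA, RFC2 and POLE have no such overlap.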

How the data were processed

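RNA-Seq of 3 parental and 3 resistant libraries was read from the deposited table of FPKM values, made by the authors from single-end reads of 50 bases with STAR, Cufflinks and GENCODE v25 on GRCh38. The labels name FastQC 0.10.1, Trimmomatic 0.27 and a mouse build, mm10, although the identifiers are human, and also both an unstranded and a stranded kit. The difference between the groups was fitted in limma 3.58.1 (R 4.3.3) to log2(FPKM + 0.1) of the 24468 genes averaging 0.1 FPKM or more, with a mean-variance trend, two-sided p values, Benjamini-Hochberg adjustment over all of them and a threshold of 0.05. The fit was also run on simulated data with independent noise and far fewer changed genes than here. That run does not test it under the conditions of these data. With 3 libraries against 3, an exact permutation test of a single value cannot go below 0.1, so none was used. Depth was estimated from genes with a single transcript and fragments of an assumed length. Positions were from GENCODE v44 and promoters from RefSeq. The members and lists were chosen with earlier results of these data known. Named genes were all 50 and, per further list, up to 3 called genes without overlap with the smallest adjusted p. Alternatives covered the pseudocount, filter, scaling, trend, replicate block, threshold and each library left out. The deviations of libraries with the same number correlated at 0.00176, 0.018 and -0.00138, so the numbers were not taken to pair libraries. Tables were handled with Python 3.11.15, pandas 2.3.3 and numpy 2.4.6, and figures were drawn with matplotlib 3.10.9.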

Additional observations from a re-analysis of the deposited data

How the results depend on the processing

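Of the 34 genes past the threshold, 28 stayed past it under every alternative other than the stricter threshold, 27 under all 16, and none changed sign. MCM10, ORC2, POLA1 and POLD3 were lost without the variance trend, MCM10, ORC2 and POLD3 with the replicate number as a block, which left 31 genes past the threshold, and these 4, GINS4 and MCM4 with some library left out. Genes were also gained, namely MCM3, ORC6, RFC4, POLD2 and FEN1 with quantile normalization (39 past the threshold), MCM3, ORC1, ORC6 and POLD2 with median-of-ratios scaling (38), ORC1, ORC6 and POLD2 when rescaled without abundant genes (37), ORC6 without parental 2 and POLD2 without resistant 0. The median log2 fold change of the 50 genes was 0.54 with quantile normalization, 0.57 with median-of-ratios scaling and 0.54 when rescaled without abundant genes, and under these PRIM2 turned to 0.00, 0.05 and 0.02, TYMS to 0.10, 0.04 and 0.01, and RPA1, in quantile and median-of-ratios scaling, to 0.03 and 0.01. With a library left out, 28 to 33 of the 50 genes passed, the median was 0.40 to 0.53, and CDC6 (-0.18 to 0.16), MCM2 (-0.03 to 0.07), PRIM2 (-0.17 to 0.06), RPA1 (-0.26 to 0.03) and RRM2 (-0.02 to 0.22) changed sign. Without the trend 4 nucleotide genes, 5 chromatin genes and 5 mitosis genes passed, against 8, 8 and 10, and the block left 5 chromatin genes. At an adjusted p of 0.01, 3570 genes were lower over all genes tested, and 3 of the replication genes, while 3 nucleotide genes, 3 CDK inhibitors, 4 chromatin and 5 mitosis genes passed. Leaving out a library gave 5 to 7 nucleotide genes (5 without parental 2), 3 to 5 CDK inhibitors (3 without resistant 2) and 6 to 8 mitosis genes (6 without parental 0, resistant 0 or resistant 1). The E2F1 to E2F2 difference was -1.61 on the log2 scale with a pseudocount of 1, against -1.78. The causes were not tested. The table has no counts, so the counting error of single values is unknown.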

Other observations

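Some genes of the same pathways varied more between libraries of a group than between groups, and were chosen after their values were seen. RNASEH2B, a subunit of the nuclease that removes ribonucleotides from DNA, was at 22.0, 172 and 96.8 FPKM in parental and at 261, 135 and 49.7 FPKM in resistant libraries. RRM2B, the p53-responsive small subunit of ribonucleotide reductase, was at 16.4, 47.6 and 16.8 FPKM in parental and at 19, 14.8 and 16.6 FPKM in resistant libraries, so a single parental library stood apart. DCK, the deoxycytidine kinase, was at 29.3, 21.7 and 12.8 FPKM and at 20.8, 22.2 and 42.3 FPKM, and its groups overlapped.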
